A study of Apis mellifera with 6 samples.

Results

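Among the gene models measured in the hypopharyngeal glands of worker honeybees (Apis mellifera), 160 were highest in bees on honey alone, lower with pollen and lowest with pollen and brood. They are 160 of the 10704 models in the files, and of the 5018 that passed the conditions on level and ID. The members were chosen by their measured values in the same 6 libraries, so their order across the groups is a description and carries no test. A count was first divided by its library's median-of-ratios size factor, which sets the typical model level between libraries, and is called a scaled count here. A model entered if its largest group mean was 30 or more and its raw count stayed under 10000 in every library. It was kept if its lowest Honey library was at least 1.5 times its highest Pollen library (the first step) and its lowest Pollen library at least 1.5 times its highest Brood library (the second step). The authors' 360 added models and 1 model of a gene cluster on linkage group 11, at 2592827 to 2593803, could not enter.

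The libraries came from 6 colonies, 2 for each treatment, and from gland tissue of worker bees. Colonies of the Honey group got honey and no pollen, with caged queens. Those of the Pollen group got honey plus plentiful rape pollen, also with caged queens, which lowers the amount of brood step by step. Those of the Brood group got the same food as the Pollen group, and their queens laid freely. The treatments are therefore 3 separate sets of colonies and not a time course, and "fell" refers to the order of the groups. No genotype or strain is given in the labels, and the number of bees per library was not found in them either. Bees were 9 days old by the series text, but the sample labels put Pollen at 9 and 10 days, Honey at 11 and 12 and Brood at 13 and 14, so treatment and labelled age cannot be told apart.

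The hypopharyngeal gland is a paired gland in the head of the worker. In young nurse bees that eat pollen it is large and secretes the protein-rich part of brood food, including the major royal jelly proteins. In older workers and foragers it shrinks and turns to enzymes that process the sugars of nectar, such as alpha-glucosidase. Pollen supplies the protein for the nurse state, and signals from the brood keep the gland active. The files give numbered gene models with no names. None of the 10704 IDs matched any identifier of the 12398 genes in the reference table used here. The members are therefore described by position, length and values, and their functions, like the levels of gland marker genes, were not analysed here.

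The libraries held 2764870 to 4153354 counted fragments. Within that total, the 160 members together took 3.34% and 3.42% of all fragments in Honey 1 and 2, 0.651% and 0.899% in Pollen 1 and 2, and 0.141% and 0.157% in Brood 1 and 2. In scaled counts their sum was 77114 ± 12743 in Honey (SD, n = 2), 30092 ± 2424 in Pollen (SD, n = 2) and 7227 ± 231 in Brood (SD, n = 2). The sum was thus 2.56-fold higher in Honey than in Pollen and 4.16-fold higher in Pollen than in Brood. Since whole glands were sequenced, fewer cells of a type and less RNA per cell cannot be told apart.

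**Figure D1:**
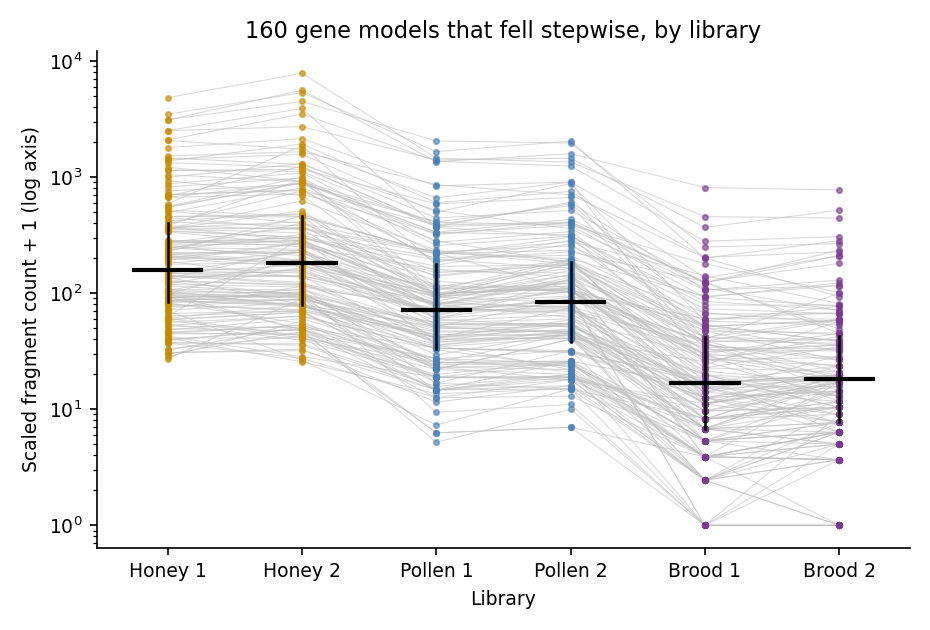
Scaled fragment count plus 1 (log axis) of each of the 160 members in each of the 6 libraries; grey lines join the values of 1 model, black horizontal bars are medians and black vertical bars span the quartiles. The rule keeps the 3 groups of any single member apart, and the median member (without the added 1) lies at 156 and 182 in Honey 1 and 2, 70.3 and 82.8 in Pollen 1 and 2, and 15.9 and 17.4 in Brood 1 and 2.

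As scaled, the typical member dropped more from Pollen to Brood than from Honey to Pollen. The median ratio of group means was 2.29 for Honey over Pollen, 4.07 for Pollen over Brood and 10.4 for Honey over Brood. Over the 5018 models that passed the level condition, the same medians were 1.06, 1.12 and 1.14. The second step was larger than the first in 135 members and smaller in 25. With each library's trend with model length removed (described further on), the median steps in the 156 members with Brood fragments were 1.98 and 2.19. The second step was then larger in 81 of them and smaller in 75, against 134 and 22 before, so this lead nearly disappeared. On the log2 scale the first step made up 37.0% of the whole fall in the median member, with quartiles of 31.2% and 45.6%. The Honey mean was at least 10 times the Brood mean in 82 members and at least 20 times in 28. These values set the 4 members without any Brood fragment at the level of 3 fragments per library. Leaving those 4 out, the median Honey over Brood ratio was 10.3. Another 7 members had only 1 to 3 fragments in both Brood libraries together. In the 149 members with more, the Honey over Brood ratio ran from 3.10 to 124. The highest of these still rested on only 2 fragments in each Brood library. At a Brood mean of 5 or more the highest was 96.0.

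As scaled, the first step was the rarer one. Of the 5018 models, 350 (6.97%) met the first step, 1560 (31.1%) met the second and 160 (3.19%) met both. The members are therefore 45.7% of the models with the first step and 10.3% of those with the second. The same rule turned round, for a rise from Honey through Pollen to Brood, was met by 82 models (1.63%). How many models meet the rule depends on each library, because a step must hold for the lowest and highest library of a group. Without Honey 1 there were 305, without Honey 2 289, without Pollen 1 263 and without Pollen 2 392, while leaving out Brood 1 or Brood 2 gave 175 and 198. With only the library totals as scale, 1027 models met the rule, all 160 members among them. By edgeR (described below), 33.3% of tested models were then called higher in Honey than in Pollen. For Pollen over Brood it was 32.4%, so by calls the first step was not the rarer one on that scale.

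**Figure D2:**
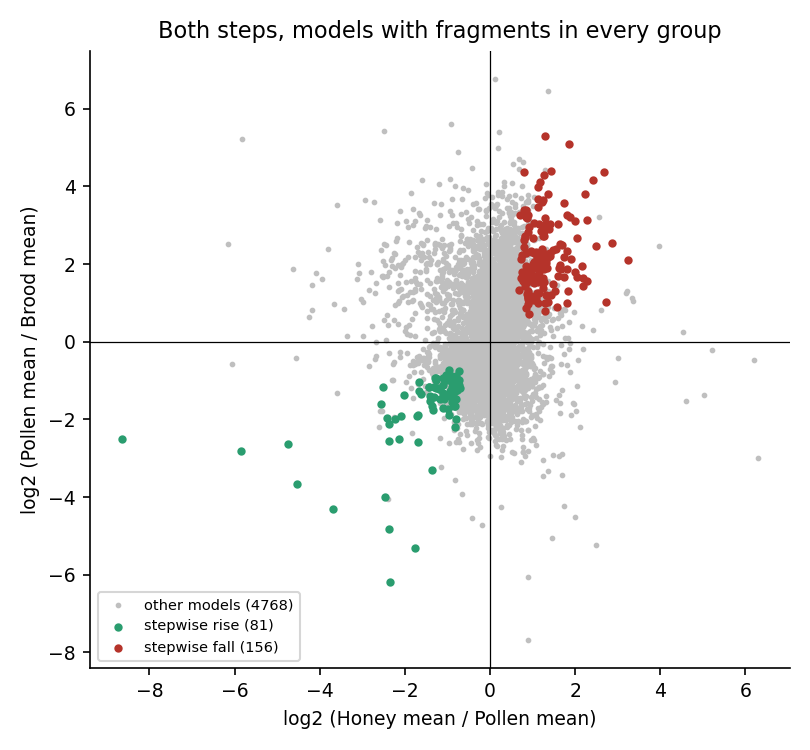
Log2 ratio of the Pollen mean over the Brood mean (vertical) against the log2 ratio of the Honey mean over the Pollen mean (horizontal) for models that passed the level condition and had fragments in every group: 156 members in red, 81 models of the reversed rule in green and 4768 others in grey. Red points extend further up than to the right, since the second step, as scaled, was the larger in 134 of these 156 members.

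The same libraries gave 56 members called higher in Honey than in Pollen, 140 called higher in Pollen than in Brood and 160 called higher in Honey than in Brood, by edgeR's quasi-likelihood test over 6943 models at an adjusted p under 0.05. Among all models tested, 1.84% were called higher in Honey than in Pollen, 26.0% higher in Pollen than in Brood and 28.8% higher in Honey than in Brood. The rule used these very contrasts, so nothing is read from the members' counts. In this fit none of the 160 was called in the opposite direction, since the rule had fixed their direction. For Honey against Pollen the members' median log2 change was 1.10 with all libraries, against 0.01 over all models tested. It was 1.10 without Honey 1, 1.02 without Honey 2, 1.01 without Pollen 1 and 1.21 without Pollen 2. Over all models tested the same medians were, in that order, -0.02, -0.002, 0.02 and 0.05. The members were chosen on all 6 libraries, so the rule also set a positive median in each of these fits, and nothing is read from it.

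The member with most fragments in Honey was gene3580, on linkage group 4 at 6636763 to 6787384 on the minus strand, with a model length of 5876 bases. Its scaled counts were 4828 and 7820.4 in Honey 1 and 2, 1454 and 1343 in Pollen 1 and 2, and 455 and 442 in Brood 1 and 2. The Honey libraries differed more from each other than the Pollen or the Brood libraries did, and the lowest Honey value was still above 3 times the highest Pollen value. The ratio of means was 4.52 for Honey over Pollen and 3.12 for Pollen over Brood, so that this member took 57.0% of its log2 fall in the first step.

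The next 3 members by fragments were long models as well. The model on linkage group 10 at 2701909 to 2740309 (9846 bases) had 3475 and 5339.5 in Honey 1 and 2, 1655 and 2037 in Pollen 1 and 2, and 199 and 92.1 in Brood 1 and 2. It fell mostly in the second step, 12.7-fold against 2.39-fold. On linkage group 2, the model at 12839184 to 12896231 (7715 bases) had 3104.5 and 5604 in Honey, 1358 and 1586 in Pollen, and 811 and 772 in Brood. Its second step was only 1.86-fold, and it overlaps a model added by the authors on the same strand. Another on linkage group 1, at 9525944 to 9538627 (6478 bases), had 3117 and 4480.3 in Honey, 2045 and 1963 in Pollen, and 249 and 266 in Brood. Here the fall was 1.90-fold and then 7.79-fold.

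The fifth, on linkage group 6 at 175095 to 198140 (1969 bases), had 2512 and 3895 in Honey 1 and 2, 368 and 305 in Pollen 1 and 2, and 78.0 and 77.5 in Brood 1 and 2. Its first step of 9.51-fold was larger than its second of 4.33-fold, and Honey stood far above both other groups. A model on the opposite strand lies inside it, at 189128 to 190923, with raw counts of 64237 and 27784 in Honey, 1913 and 4576 in Pollen, and 4432 and 6756 in Brood. In scaled counts that partner had 31791 and 25286 in Honey, 2008 and 4566 in Pollen, and 6405 and 9022 in Brood. It thus also stood far higher in Honey than in Pollen, but did not fall from Pollen to Brood. It is not stated whether strand was used in counting, so fragments of the pair may not be separable.

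The remaining 3 of the 8 with most Honey fragments each fell more in the second step. On linkage group 14, the model at 6636249 to 6654688 (6333 bases) had 2090.4 and 3498 in Honey, 1367 and 1241 in Pollen, and 279 and 306 in Brood. On linkage group 15, the model at 6320438 to 6352168 (3505 bases) had 2509 and 2716 in Honey, 1405 and 1452 in Pollen, and 367 and 517 in Brood. On linkage group 1, the model at 28525872 to 28530317 (1424 bases) had 1792 and 2140 in Honey, 838 and 904 in Pollen, and 202 and 226 in Brood. These 3 fell 2.14-fold, 1.83-fold and 2.26-fold in the first step and 4.46-fold, 3.23-fold and 4.07-fold in the second. Per length, the short one of 1424 bases was the highest of the 8, at a deposited FPKM (fragments scaled by the authors for model length and depth) of 485 in Honey, 229 in Pollen and 56.3 in Brood on average, whereas gene3580 reached a mean of 159 in Honey. In all 8 the Honey 2 value was above the Honey 1 value.

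**Figure D3:**
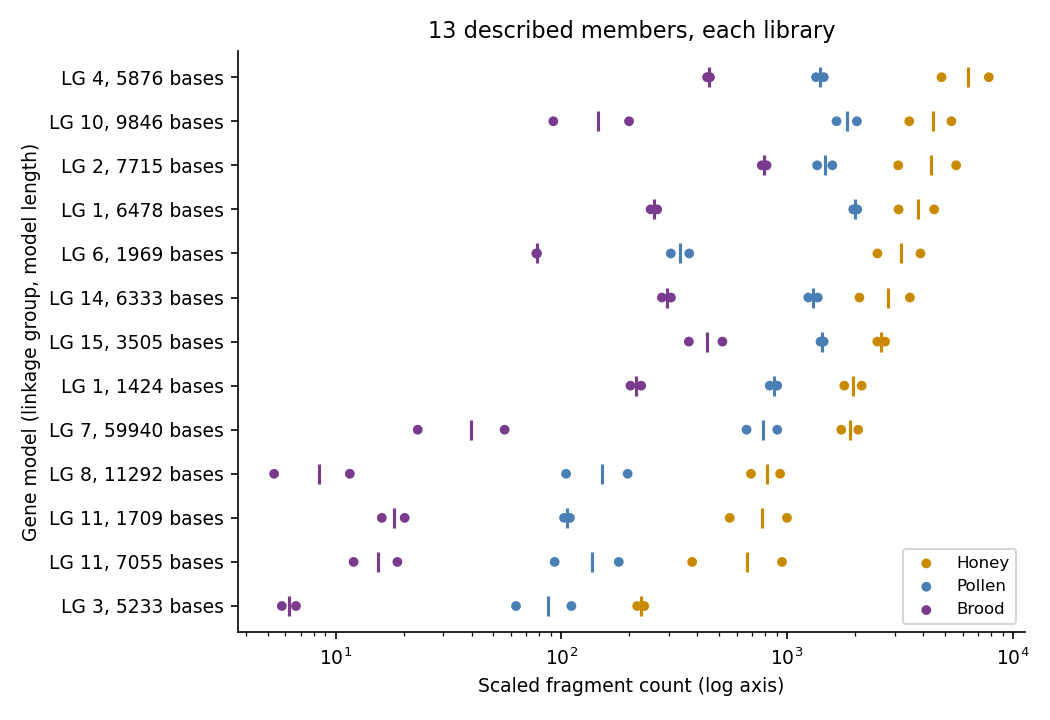
Scaled fragment count (log axis) of 13 described members in each library: the 8 with most Honey fragments and those with the largest Honey to Brood ratios, named by linkage group (LG) and model length. Dots are single libraries and ticks are group means; in every row the 2 Honey dots lie right of the 2 Pollen dots and these right of the 2 Brood dots, as the rule demands.

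Among members with a Brood mean of 5 or more, gene6281 had the largest Honey to Brood ratio, 96.0. It lies on linkage group 8 at 1483704 to 1524049 and is 11292 bases long. Its scaled counts were 931 and 692 in Honey 1 and 2, 105 and 197 in Pollen 1 and 2, and 11.6 and 5.34 in Brood 1 and 2. Both steps were large, 5.38-fold and 17.8-fold. The longest model of all 5018, with 59940 bases, on linkage group 7 at 7135058 to 7336100, was a member too. It went from 2065 and 1736 in Honey through 661 and 904 in Pollen to 23.1 and 56.1 in Brood, 2.43-fold and then 19.8-fold.

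There were 2 members on linkage group 11 with similar overall ratios. The model at 6314545 to 6326838 (1709 bases) had 557 and 998 in Honey, 109 and 103 in Pollen, and 20.2 and 16.02 in Brood, a ratio of 42.9 for Honey over Brood. The model at 2140046 to 2182395 (7055 bases) had 380 and 949 in Honey, 93.4 and 179.6 in Pollen, and 18.8 and 12.0 in Brood, a ratio of 43.1. Both had more than 1.5 times as much in Honey 2 as in Honey 1. On linkage group 3, the model at 5464173 to 5475782 (5233 bases) had 217 and 233 in Honey, 63.0 and 111 in Pollen, and 5.78 and 6.68 in Brood, a ratio of 36.1.

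The members divided their fall unevenly between the steps. Leaving aside those without Brood fragments, the largest share in the first step, 72.9%, was in the model on linkage group 5 at 6253637 to 6258485. It had 28.7 and 45.5 in Honey, 5.25 and 5.99 in Pollen, and 2.89 and 2.67 in Brood, so that Pollen and Brood both rested on few fragments. Next came the model on linkage group 4 at 838289 to 843175 with 64.6%, the 7715-base model on linkage group 2 with 63.6%, and the model on linkage group 8 at 11538693 to 11542858 with 61.5%. At the other end, the model on linkage group 11 at 13122843 to 13130770 took 19.3% of its fall in the first step, with 77.7 and 71.0 in Honey, 43.0 and 41.9 in Pollen, and 1.45 and 6.68 in Brood. For the model on linkage group 3 at 4032804 to 4040070 it was 18.0%. The 2 others of this kind, on linkage group 12 at 9078506 to 9141272 and on linkage group 1 at 23660755 to 23684180, each had only 3 fragments in both Brood libraries together, and no ratio is given for them.

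There were 4 members with no fragment in either Brood library, where 3 fragments would be a scaled count of 4.34 and 4.01. They were described after their values were seen. The model on linkage group 11 at 8955628 to 8969515 had 101 and 100.1 in Honey and 8.4 and 9.98 in Pollen, so it was 10.9-fold higher in Honey than in Pollen and at least 24.1-fold higher than in Brood. The model on linkage group 1 at 21748211 to 21764761 had 97.5 and 47.3 in Honey and 4.2 and 8.98 in Pollen, and was at least 17.4-fold higher in Honey than in Brood. Another, on linkage group 14 at 5708800 to 5723708, had 59.4 and 41.9 in Honey and 5.25 and 5.99 in Pollen, and was at least 12.1-fold higher in Honey than in Brood. These 3 were thus already low in Pollen. The model on linkage group 12 at 8443879 to 8490927 had 29.7 and 30.9 in Honey and 13.6 and 14.0 in Pollen, and was at least 7.27-fold higher in Honey than in Brood.

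The limit of 1.5 is sharp, and models lie close to it on either side. Just inside were the models on an unplaced scaffold at 26690 to 52115, on linkage group 12 at 9974486 to 10024498 and on linkage group 5 at 13761332 to 13769926, whose smaller gaps were 1.506, 1.507 and 1.51. Just outside, all for their first step, were the models on linkage group 3 at 9157233 to 9256221, on linkage group 11 at 9678827 to 9684144 and on linkage group 1 at 24339342 to 24347604. Their Honey to Pollen gaps were 1.4999, 1.498 and 1.498.

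Among the members, replicate colonies did not lie equally close in all groups. The rule acts on the lowest and highest library of a group, so it favours models whose libraries lie close. The members' shares below are therefore partly set by the rule. The higher library was at least 1.5 times the lower one in 34 members (21.3%) in Honey, 30 (18.8%) in Pollen and 74 (46.3%) in Brood, against 21.9%, 25.1% and 35.0% of all 5018 models. In Brood 53 members had under 10 fragments in both libraries. Pollen 2 was above Pollen 1 in 116 members (72.5%), against 54.8% of all models. Brood 2 was above Brood 1 in 90 members (56.3%), against 43.1% of all models. In Honey, 88 members (55.0%) were higher in Honey 2, against 50.9% of all models, but among the 40 members with most Honey fragments 30 were. Neither this count nor the same order in the 8 with most Honey fragments was compared with other models of such levels. By the sample labels the second colony of each group was also 1 day older.

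The members were long. Their median model length was 4444 bases, with quartiles of 2834 and 6278, against 2124 bases (quartiles 1232 and 3621) for the 5018 models. The 82 models that rose stepwise had a median of 894 bases. Among models in the middle range of the members' own mean levels, the median was 2193 bases. When the 5018 were cut into 10 length classes of equal size, the rule was met by 10.4% of the longest (5715 bases or more), 7.37% of the next and 4.58% of the third longest. It was met by 0.598% of the second shortest class and by none of the 502 shortest models (171 to 748 bases). Of the 160 members, 89 (55.6%) were in the 2 longest classes and 3 in the 2 shortest. The rise ran the other way, with 50 of its 82 models in the 2 shortest classes and 1 in the 2 longest.

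The members' genes also spread over more of the genome. Their median span from first to last base was 17785 bases, against 4508 for the 5018 models, and 4.11 times the model length against 1.94 times. There were 23 members (14.4%) spanning 100000 bases or more, against 3.69% of the 5018 and none of the 82 that rose. Models that fell only in the second step were intermediate, with a median length of 3795 bases and a median span of 11462 bases. Models that fell only in the first step had a median length of 2432 bases and a median span of 5293 bases, closer to the 5018.

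Length moved with the contrasts themselves, in all models. In the shortest class the median model had a log2 Honey over Pollen ratio of -0.43 and a Pollen over Brood ratio of -0.99. In the longest class these were 0.34 and 1.70. Members in the longest class had medians of 1.22 and 2.09, closer to all models of their length in the second step than in the first. The rule chose members on these same steps and demanded a least gap in each. How far members stood above other models of their length was thus largely set by the rule, and nothing is read from it. Members of 1729 to 2123 bases had median log2 ratios of 1.12 and 1.64, where the median model had 0.10 and -0.03.

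**Figure D4:**
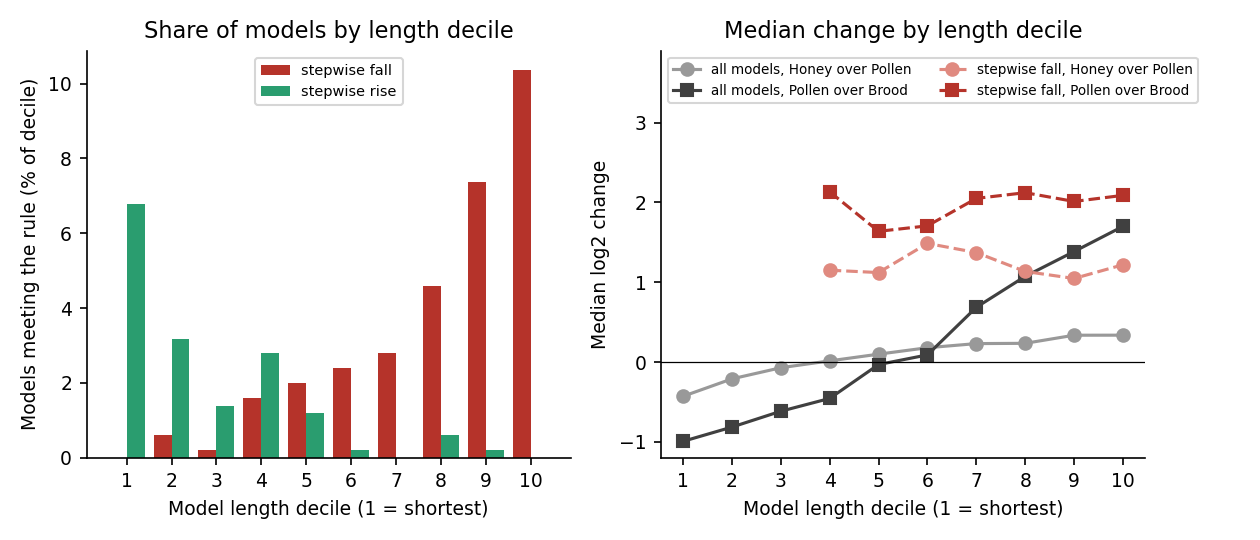
Left, the percentage of models that met the rule (red) or its reverse (green) in each of 10 classes of model length, from shortest to longest; right, the median log2 ratio of group means plus 1 for all models (grey and black) and of group means for members (red, classes with 8 or more members). The share of members climbs from 0 in the shortest class to 10.4% in the longest, while the black line climbs from -0.99 to 1.70.

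When each library's smooth trend with length was removed, 61 of the 160 members still met the rule, among 75 models in all. Honey stayed above Pollen in all libraries for all 160 members, and the median Honey over Pollen ratio went from 2.26 to 1.98 in the 156 members with Brood fragments. The rule had left a gap of at least 1.5 times in this step. The removed trend also differed less between Honey and Pollen than between Pollen and Brood. That all 160 kept this order was thus largely set by the rule, and nothing is read from it. Pollen stayed above Brood in all libraries for 129, and the median Pollen over Brood ratio went from 4.10 to 2.19. For 14 members the Pollen mean was then below the Brood mean. The 61 that held were shorter, with a median of 2504 bases against 5334 for the 99 that did not. Of the 8 members with most Honey fragments, 3 held, those of 1969, 3505 and 1424 bases. For gene3580 the second step became 1.21-fold, and for the 7715-base model on linkage group 2 it turned round, with a ratio of 0.601. By contrast gene6281 held, with steps of 4.48-fold and 4.60-fold. So did the 1709-base model on linkage group 11, at 7.35-fold and 7.10-fold, and the 7055-base model there, at 4.08-fold and 3.00-fold. Of the other members described on linkage group 11, the model at 8955628 to 8969515 held and that at 13122843 to 13130770 did not. The part of model length, or of a property of the RNA that goes with it, in the members' fall was not tested.

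**Figure D5:**
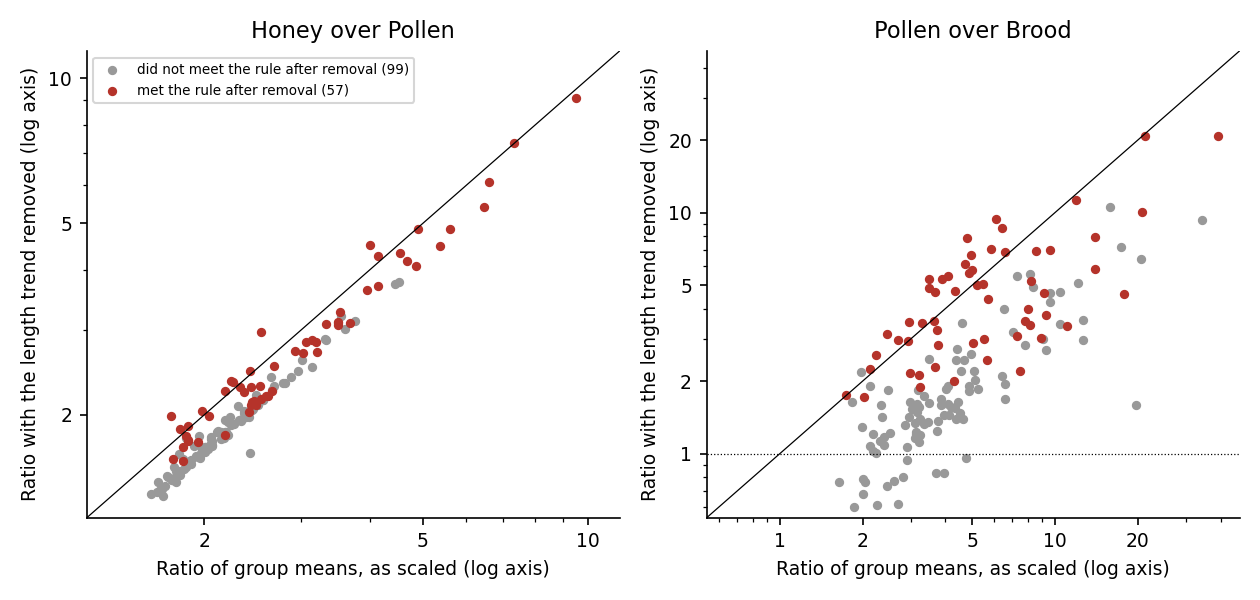
Ratio of group means after removal of each library's trend with model length against the ratio as scaled (both log axes), for Honey over Pollen (left) and Pollen over Brood (right), in the 156 members with Brood fragments; the solid line marks equal values and the dotted line a ratio of 1. Points stay near the line on the left. On the right the median drops from 4.10 to 2.19 and 14 points fall under 1. Some short models there rise above the line, such as the 1424-base model on linkage group 1 (4.07 to 5.48). Red marks the 57 of these members that still met the rule.

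A core of 50 members also met the rule with the libraries scaled by TMM (edgeR's trimmed mean of ratios), with the deposited FPKM, with the authors' normalized counts and with the length trend removed. Their median length was 2674 bases, and their median ratios as scaled were 2.80 for Honey over Pollen and 5.13 for Pollen over Brood. The core held the 1969-base model on linkage group 6, the 3505-base model on linkage group 15, the 1424-base model on linkage group 1 and gene6281. Fragments of the 1969-base model may not be separable from those of its partner on the opposite strand. The core was put together after the data were seen.

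Every one of the 16 linkage groups held members, from 3 on linkage group 16 to 19 on linkage group 1, and 8 lay on unplaced scaffolds. As a share of the models that passed the level condition, they ran from 1.90% on linkage group 2 to 5.02% on linkage group 14, around 3.19% overall. There were 74 on the plus strand and 86 on the minus strand. There were 6 members (3.75%) that directly neighboured or overlapped another member, in 3 pairs, and this number was not compared with other sets of models. On linkage group 15, the model at 8085235 to 8120321 ends 65 bases before the one at 8120387 to 8122922 on the same strand. The first had 666 and 714 in Honey, 326 and 381 in Pollen, and 91.0 and 121.5 in Brood. The second had 202 and 182 in Honey, 97.6 and 108 in Pollen, and 31.8 and 30.7 in Brood. Their ratios were nearly equal, at 1.95 and 1.87 for the first step and 3.33 and 3.29 for the second.

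On linkage group 3, the models at 3751358 to 3901700 and at 3905046 to 3912467 follow each other on the minus strand, 3345 bases apart. The first fell from 160 and 156 in Honey to 50.4 and 88.8 in Pollen and 0 and 8.01 in Brood. The second fell from 206 and 187 to 111 and 113 and then to 13.0 and 28.0. On linkage group 12, the model at 9974486 to 10024498 lies inside one at 9879403 to 10070298 on the other strand, and their fragments may not be separable. In all, 38 members (23.8%) overlapped a listed model on the opposite strand, against 21.2% of the 5018, and 122 members remain when these are left out.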

How the data were processed

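RNA of 6 gland libraries was sequenced. Per the labels' protocols, each NEBNext Ultra library started from 3 ug of total RNA. Aligner, counting tool, annotation and build are not given in the sources used here; linkage groups are read from the sequence identifiers in the files. Per the file headers, the authors deposited a raw fragment count, a normalized count (a signal: the count times a library factor for most models) and an FPKM for each model. Raw counts were used. Size factors were medians of ratios over the 4633 models with 10 or more fragments in all 6 libraries. All comparisons used edgeR 4.0.16 in R 4.3.3 (filterByExpr, TMM, quasi-likelihood test, two-sided, Benjamini-Hochberg adjustment over 6943 models), 1 fit with 3 residual degrees of freedom, tested on simulated data. Alternatives used DESeq2 1.42.0, limma 3.58.1 on log2(FPKM + 1), and offsets from a lowess of each library's log2 deviation on log2 model length (fraction 0.3, statsmodels 0.14.6). Decile medians used a pseudocount of 1. A count of 0 allows up to 3 fragments, which covers counting error only.

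The members, lists and tests were chosen with earlier results of these data known. Lists of named genes were not used, as no ID matched. The members described singly are the 8 with most Honey fragments, the 6 with the largest Honey to Brood ratio at a Brood mean of 5 or more, the 4 at each end of the share of the first step, the 3 on each side of the limit and neighbouring members; those without Brood fragments were added later. Per the labels each library is a colony of its own, so the spread includes that between colonies.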

Additional observations from a re-analysis of the deposited data

How the results depend on the processing

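The number of models that fell stepwise (160) became 1027 with library totals only, 75 with the length trend removed, 490 with a step of 1.2 times, 39 with a step of 2 times, 104 at a group mean of 100 or more and 532 with group means in place of single libraries; the last 4 change the rule itself. It was 116 with TMM, 126 with FPKM (117 of them members), 139 with the authors' normalized counts (137 of them members), 185 at a group mean of 10 or more and 162 without the upper limit. Leaving out single libraries, which loosens the rule, gave 175 to 392. The normalized counts, the set without overlapping models and the description of members without Brood fragments were added after seeing the data. With library totals only, the median of all models shifted to 0.90, 0.46 and 1.30 on the log2 scale for Honey vs Pollen, Pollen vs Brood and Honey vs Brood.

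Of 428 models called between Honey and Pollen, 128 were higher in Honey and 300 lower. The count became 2448 with library totals only (2312 higher and 136 lower), 795 without a filter on low counts and 230 with limma on FPKM. The members called higher in Honey (56) became 160, 94 and 27 in the same order. The share of all models tested that was called higher in Honey was 33.3%, 2.91% and 1.11% in these fits, against 1.84% in the main fit. The 3359 calls between Pollen and Brood (1806 higher in Pollen, 1553 lower) became 1943 with the length trend removed. The members called (140) became 69, with 1 member called lower in Pollen. Of all models tested, 26.0% were called higher in Pollen in the main fit and 14.6% with the length trend removed. With library totals 2253 were higher and 553 lower. The 3969 calls between Honey and Brood (1998 higher in Honey, 1971 lower) became 2611 with the length trend removed, and the members called (160) became 129. Here 28.8% of all models tested were called higher in Honey in the main fit and 17.3% with the length trend removed. With library totals 3707 were higher and 305 lower. With 1 library left out at a time there were 134 to 549, 2306 to 3146 and 3031 to 4029 calls, and 18 to 74, 114 to 137 and 158 to 160 members called. The library that then stands alone takes its spread from the remaining groups. The cause of these shifts was not tested.

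The members' median log2 change in edgeR was 1.10, 1.92 and 3.11 for Honey vs Pollen, Pollen vs Brood and Honey vs Brood. It became 1.95, 2.40 and 4.46 with library totals only, 0.89, 0.98 and 1.97 with the length trend removed, and 0.89, 1.07 and 2.02 with limma on FPKM. The last 2 comparisons gave 1.94 and 3.18 with DESeq2 size factors, 1.95 and 3.20 with DESeq2's test, and 1.96 and 3.20 without a filter. Without single libraries it ran from 1.01 to 1.21, 1.85 to 2.05 and 3.04 to 3.25. With the replicate number as a block it was 1.09, 1.92 and 3.13, and 435, 3313 and 3901 models were called. Same-numbered libraries deviated together at correlations of -0.09 (Honey and Pollen), 0.15 (Pollen and Brood) and 0.04 (Honey and Brood). These values come from 1 difference per group, so they cannot settle whether the replicate numbers pair the colonies. Removal of the length trend turned the log2 change from Pollen to Brood to -0.89 for the 7715-base model on linkage group 2 and to -0.53 for the model on an unplaced scaffold at 26690 to 52115. For the members described singly, 1154 values stayed on their side of the threshold, 49 lost it, 43 gained it and 2 reversed. Ratios of members with few Brood fragments are limited by depth.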
